A study of Mus musculus with 11 samples.

Results

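The SA1-poor windows are 1 Mb stretches of the mouse autosomes in which chromatin immunoprecipitation and sequencing (ChIP-seq) found almost no SA1. They were chosen by the wild-type SA1 list: each window holds the midpoints of at most 3 wild-type SA1 intervals and at least 1 interval of any of the 8 ChIP lists. Of 2365 autosomal windows with a ChIP interval, 407 (17.2%) met the rule, and the other 1958 served for comparison. A further 117 windows held no ChIP interval, 57 of them in the first 3 Mb of a chromosome, and were left out. The cells were mouse embryonic fibroblasts (MEFs), which are primary cells, from embryos of the mixed strain C57BL/6 x 129 Sv at embryonic day 12.5. They were either wild type or SA1-null, and neither genotype had been treated. Antibodies to SA1, SA2, SMC1 and SMC3 were used in both genotypes, and 2 input libraries pooled DNA of both. Each list stood for 1 library, except that the name of the SA1-null SMC1 list gives its 2 samples together.

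Cohesin is a ring of SMC1, SMC3 and a kleisin subunit that holds sister chromatids together and folds interphase chromatin into loops. A ring in somatic cells carries SA1 or SA2, which help to load and place it. Along chromosomes, cohesin is known to gather at sites of the insulator protein CTCF and near active genes, and to be sparse in large regions with few genes. An annotation of mm9, the build of the lists, was not used here, so windows and positions are named by coordinates and not by genes.

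The lists give positions and no heights, and sequencing depth is unknown. They range from 177 peaks (SA1 in SA1-null cells) to 47003 (SMC1 in SA1-null cells), and the input lists hold 436 and 417 intervals. With 1 list a group there was no replicate spread and no test between genotypes was possible. Intervals are 95% intervals that cover the counting of peaks only, since neighbouring peaks and windows are not independent samples. For the main comparisons of SA1-poor with other windows, the interval of the difference itself is given, with the number of autosomes in the same direction for several of them.

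The windows were spread over the genome, and 243 of them (59.7%) lay next to another. Every autosome had some, from 10 of 117 windows on chromosome 13 (8.55%, interval 4.71 to 15.0%) to 28 of 117 on chromosome 14 (23.9%, interval 17.1 to 32.4%). The 10 windows nearest each chromosome start were SA1-poor in 15.2% of cases, the 10 nearest the end in 14.4% and those between in 17.6%, with overlapping intervals. The 407 windows formed 256 uninterrupted runs. The 117 windows with no ChIP interval were not counted as SA1-poor, so such a window ended a run. Run lengths depend on this. A single window made up 164 runs, 50 runs were of 2 windows, and 42 runs were of 3 or more and held 143 windows.

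The 5 longest runs were chr8:99000001-105000000, chr14:80000001-86000000, chr1:25000001-30000000, chr15:13000001-18000000 and chr2:85000001-90000000 (mm9). The first pair spans 6 windows each and the other 3 span 5. The run on chromosome 8 held 5 SA1, 6 SA2, 3 SMC1 and 4 SMC3 peaks in wild-type cells. Its SA1-null counts were 2 SA2, 5 SMC1 and 2 SMC3. On chromosome 14 the wild-type counts were 6 SA1, 10 SA2, 1 SMC1 and 0 SMC3, and the SA1-null counts were 4 SA2, 11 SMC1 and 4 SMC3. In the run on chromosome 1 neither ring subunit had a wild-type peak, while SA1 had 4 and SA2 had 2. There, the SA1-null lists held 5 peaks of SMC1 and 2 of SMC3. The runs ended sharply in places: the windows flanking that on chromosome 2 held 10 and 26 SA1 midpoints, and those flanking that on chromosome 8 held 10 and 19.

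The rule fixed the SA1 counts. Among the 407 windows 84 held no SA1 midpoint, 129 held 1, 105 held 2 and 89 held 3, which gives 606 SA1 peaks (1.49 per window, against 12.9 in the other windows). Values on both sides of the limit were near each other: the 89 windows with 3 SA1 midpoints held on average 1.89 wild-type SMC1 peaks and 1.12 wild-type SA2 peaks, and the 107 windows with 4 held 2.34 and 1.47.

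The ring subunits, whose counts did not enter the limit on SA1, were sparse too. Wild-type cells gave 355 SMC1 peaks in the 407 windows, or 0.872 per window against 11.8 in the other windows, a 13.6-fold lower density. For SMC3 the wild-type count was 209 (0.514 per window against 7.70, 15.0-fold lower). SA1-null cells gave 818 SMC1 peaks (2.01 against 23.1, 11.5-fold lower) and 505 SMC3 peaks (1.24 against 17.2, 13.8-fold lower). No wild-type SMC1 peak was found in 240 windows (59.0%), and no SMC peak of either kind or genotype in 137 (33.7%), whereas 10 of the 1958 other windows lacked all 4. All 4 SMC lists had a peak in 103 SA1-poor windows (25.3%), against 95.6% of the others.

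Called SA2 peaks were depleted less than those of SMC1 and SMC3. By their names, the SA2 lists were called against the first input and the SMC lists against the second. Wild-type cells gave 371 SA2 peaks (0.912 per window against 3.66, 4.02-fold lower) and SA1-null cells 237 (0.582 against 3.08, 5.28-fold lower). The 371 wild-type SA2 peaks stood beside 355 wild-type SMC1 peaks here, whereas 7169 stood beside 23160 in the other windows. With the 117 windows left out counted as SA1-poor, the density was 5.17-fold lower for wild-type SA2 and 17.5-fold lower for wild-type SMC1. As shares of the autosomal lists, 4.92% (interval 4.45 to 5.43%) of wild-type SA2 peaks lay in SA1-poor windows, against 1.51% (interval 1.36 to 1.67%) of wild-type SMC1 and 1.37% (interval 1.19 to 1.56%) of wild-type SMC3 peaks. In SA1-null cells the shares were 3.79% (interval 3.34 to 4.29%) for SA2, 1.77% for SMC1 and 1.48% for SMC3.

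**Figure D1:**
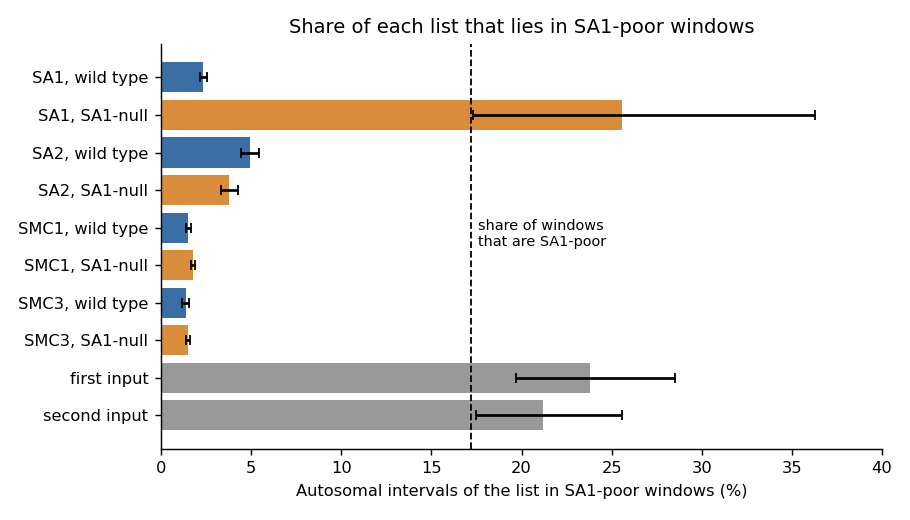
Share of the autosomal intervals of each list that lie in SA1-poor windows, in percent, with 95% Wilson intervals (bars: blue wild type, orange SA1-null, grey input). The dashed line is the 17.2% of windows that are SA1-poor: the SMC lists lie at 1.37 to 1.77%, the SA2 lists at 3.79 and 4.92%, and both input lists and the SA1-null SA1 list above the line.

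The intervals called without specific antibody target did not follow the ring. Of the autosomal input intervals, 23.8% (interval 19.7 to 28.5%) of the first list and 21.2% (interval 17.5 to 25.6%) of the second lay in SA1-poor windows, as did 20 of 78 SA1-null SA1 peaks (25.6%, interval 17.3 to 36.3%). Most of them sat in few places. A set of 8 SA1-poor windows with at least 4 input intervals held 55 of the 84 and 56 of the 83 input intervals, and 10 of the 20 SA1-null SA1 peaks. Without windows of that kind, the input shares were 14.6% (interval 10.3 to 20.1%) and 12.4% (interval 8.69 to 17.5%). The 8 windows held 17 of the 237 SA1-null SA2 peaks and 5 of the 371 wild-type SA2 peaks. Examples, chosen after their values were seen, were the windows of chromosome 4 that start at 145000001 and 146000001. They held 6 and 4 SA1-null SA2 peaks and no wild-type SA2 peak. SA1-null SA1 peaks numbered 5 and 1 there, and intervals of the first input 8 and 8. Neither window had an SMC1 peak in either genotype, and each had 1 wild-type and 0 SA1-null SMC3 peaks.

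Graded by SA1 number, the ring lists thinned out over the whole range, and the SA2 lists far less. From windows with 13 or more SA1 midpoints to windows with none, the mean number of wild-type SMC1 peaks went from 17.8 to 0.190, a 93.2-fold difference, and that of wild-type SMC3 from 11.6 to 0.119, a 97.5-fold difference. In SA1-null cells the differences were 65.1-fold for SMC1 (34.1 to 0.524) and 71.6-fold for SMC3 (25.6 to 0.357). Wild-type SA2 went from 5.08 to 0.738, a 6.89-fold difference, and SA1-null SA2 from 4.13 to 0.405, a 10.2-fold difference. The first input stood at 0.133 and 0.226 in the same windows. The 84 windows without SA1 held 62 wild-type SA2 peaks beside 16 wild-type SMC1 peaks. Such a window counts only if another ChIP list has an interval in it, so its means are raised by the rule. In 27 of the 84, holding 31 of the 62 peaks, wild-type SA2 was the only list present, against 1 window for wild-type SMC1. With the 117 windows left out counted at 0, wild-type SA2 stood at 0.308 and wild-type SMC1 at 0.0796 per window without SA1, differences of 16.5-fold and 223-fold from the windows with 13 or more. The level of SA2 at the lowest SA1 numbers is thus a description of the windows kept.

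Position within a run gave a like contrast, but over the same kept windows, so it is no separate support. A window with no ChIP interval was not counted as an SA1-poor neighbour. Windows with no SA1-poor neighbour (164) held on average 1.33 wild-type SMC1 and 3.12 SA1-null SMC1 peaks. Windows with SA1-poor neighbours on both sides (59) held 0.203 and 0.644, which is 6.54-fold and 4.84-fold less. For SMC3 the differences were 3.19-fold in wild-type and 5.79-fold in SA1-null cells. Wild-type SA2 stood at 0.915 and 0.983 in the same windows, and SA1-null SA2 at 0.598 and 0.441. The SA1 number, which the rule restricts, was 1.65 and 1.10. The rule bears on this contrast too. Wild-type SA2 was the only ChIP list present in 27 of the 407 windows, and wild-type SMC1 in 1. The part of this in the contrast was not tested. Wild-type SA2 peaks without a wild-type SMC1 peak numbered 0.720 per window with no SA1-poor neighbour and 0.949 with 2. SA1-null SA2 peaks without an SA1-null SMC1 peak showed no such rise, at 0.335 and 0.322.

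SMC1 was called more often in SA1-null than in wild-type cells within these windows, as it was elsewhere. The SA1-null SMC1 list stands, by its name, for 2 samples together and the wild-type list for 1 library. The part of this in the SMC1 counts was not tested. The SA1-poor windows held 818 SA1-null and 355 wild-type SMC1 peaks, a ratio of 2.30 (exact binomial interval 2.03 to 2.62). In the other windows the ratio was 1.96 (interval 1.92 to 1.99). The quotient of these ratios was 1.18 (interval 1.04 to 1.34). SA1-null peaks outnumbered wild-type peaks in the SA1-poor windows of all 19 autosomes, with ratios from 1.33 to 4.60, and the ratio stood above that of the other windows on 14 of 19. The interval of the quotient took in 1 under some alternatives. Without the 5 SA1-poor windows richest in ChIP peaks, a choice that counts SA1-null SMC1 peaks too, it was 1.13 (interval 0.99 to 1.30). In the widest 50% of each list it was 1.17 (interval 0.942 to 1.47). With windows shifted by 0.5 Mb it was 1.27 (interval 1.12 to 1.44), and with at most 1 SA1 midpoint 1.44 (interval 1.09 to 1.92). Window by window, SA1-null SMC1 peaks were more numerous in 171 SA1-poor windows (42.0%), less numerous in 19, equal in 63 and absent from both genotypes in 154. Over all 2365 windows 86.2% had more SMC1 peaks in SA1-null cells, so the share was below the background, with many windows at 0.

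SMC3 gave a ratio of 2.42 (505 and 209 peaks, interval 2.05 to 2.85) in SA1-poor windows and 2.23 (interval 2.19 to 2.27) in the others. Their quotient of 1.08 had an interval of 0.920 to 1.28, which takes in no difference as well as a 1.28-fold one, and 10 of 19 autosomes had the higher ratio in SA1-poor windows. With windows shifted by 0.5 Mb the quotient was 1.25 (interval 1.07 to 1.47). SMC3 peaks were more numerous in SA1-null cells in 151 SA1-poor windows (37.1%), against a background of 85.7% of all windows, and less numerous in 18. There were 86 SA1-poor windows with SMC1 peaks in SA1-null cells alone (21.1%, against 4.90% of all windows) and 7 with SMC1 peaks in wild-type cells alone (1.72%, against 0.338%). For SMC3 these counts were 92 (22.6%, against 6.47%) and 12 (2.95%, against 0.592%). Both kinds were more frequent than in the other windows (1.53% and 0.0511% for SMC1, 3.12% and 0.102% for SMC3). A window with few peaks more readily holds 0 in 1 of 2 lists, and the part of this was not tested. SA2 showed it as well. Its windows with peaks in wild-type cells alone made up 34.6%, against 5.46% of the other windows. Those with peaks in SA1-null cells alone made up 16.7%, against 3.32%.

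SA2 went the other way. Its SA1-null count divided by its wild-type count was 0.639 (237 and 371 peaks, interval 0.540 to 0.754) in SA1-poor windows and 0.840 (interval 0.812 to 0.870) in the others, a quotient of 0.760 (interval 0.641 to 0.901). The ratio was below that of the other windows on 17 of 19 autosomes. SA1-null peaks were fewer on 18 of 19 in the SA1-poor and also in the other windows. The exception among SA1-poor windows was chromosome 4 with 27 SA1-null and 15 wild-type peaks. There, the input-dense windows from 145000001 and 146000001 held 6 and 4 of the 27 and none of the 15. Outside them, SA1-null peaks still outnumbered wild-type peaks on that chromosome. The quotient's interval reached 1.03 in the widest 50% of each list and 1 in windows with at least 5 ChIP intervals. SA1-null SA2 peaks were fewer in 174 SA1-poor windows (42.8%), against 47.4% of all windows, more numerous in 88 and equal and present in 55. The lists for SA2 were both called against the first input and those for SMC1 and SMC3 against the second, per the names they were deposited under. Depth and enrichment differ between libraries in ways the lists do not show, and the part of these in the ratios was not tested.

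**Figure D2:**
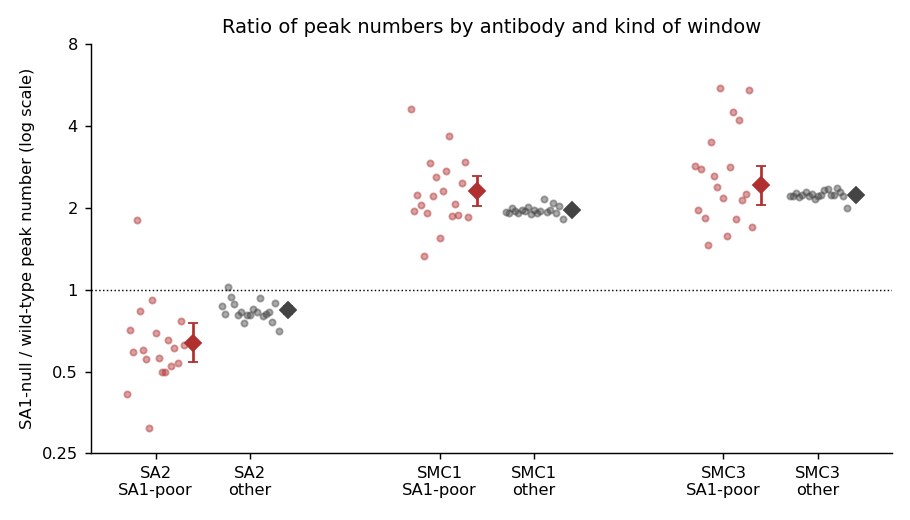
Peak number in SA1-null divided by that in wild-type cells (log scale) for SA2, SMC1 and SMC3, in SA1-poor windows (red) and in the other windows (dark grey). Small points are the 19 autosomes and diamonds the pooled ratios with 95% exact intervals, which stand at 0.639 and 0.840 for SA2, 2.30 and 1.96 for SMC1, and 2.42 and 2.23 for SMC3.

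Ring peaks of SA1-poor windows were found again in the other genotype less often than ring peaks elsewhere. Of 355 wild-type SMC1 peaks, 288 (81.1%, Wilson interval 76.7 to 84.9%) overlapped a peak of the SA1-null SMC1 list by at least 1 bp, against 93.6% in the other windows and 93.4% of all autosomal peaks. The difference was -12.5 percentage points (Newcombe interval -16.9 to -8.73), and the share was lower on 17 of 19 autosomes. For SMC3, 169 of 209 wild-type peaks were found again (80.9%, interval 75.0 to 85.6%), against 97.0% in the other windows and a background of 96.8%. The difference was -16.2 points (interval -22.0 to -11.4), on 16 of 19 autosomes. The share went down with the SA1 number of the window. It was 85.1% of 168 SMC1 peaks in windows with 3 SA1 midpoints, 77.8% of 54 with 1, and 50% of 16 (interval 28.0 to 72.0%) with none.

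Among wild-type ring peaks the difference was larger where there was no SA1 peak. Wild-type SMC1 peaks that overlapped an SA1 peak were found again in 190 of 200 cases in SA1-poor windows (95%, interval 91.0 to 97.3%) and in 98.1% elsewhere, a difference of -3.15 points (interval -7.11 to -0.877). Those without SA1 were found again in 98 of 155 cases (63.2%, interval 55.4 to 70.4%), against 81.6% elsewhere, a difference of -18.3 points (interval -26.2 to -11.1). For SMC3 the figures were 126 of 128 with SA1 (98.4%, against 98.9%) and 43 of 81 without (53.1%, interval 42.3 to 63.6%, against 85.8%). Peaks without SA1 made up 155 of 355 SMC1 peaks here, and the rule favours them. Read from the SA1-null lists, the order was the opposite. Of 818 SA1-null SMC1 peaks, 291 overlapped a wild-type SMC1 peak (35.6%, against 48.0%, difference interval -15.7 to -9.06 points). At wild-type SA1 positions the difference was -17.4 points (interval -23.0 to -12.1), and away from them -1.53 (interval -4.76 to 2.14). For SA1-null SMC3 it was -16.3 points (interval -22.4 to -10.2) with SA1 and 4.28 (interval 0.104 to 9.45) without. Width moved with the difference as well. Wild-type SMC1 peaks had a median width of 529 bp in SA1-poor windows and 582 bp elsewhere, yet the shares differed on both sides of the list's median width of 581 bp, at 92.5% and 97.7% for wider peaks and at 75.3% and 89.5% for the rest.

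SMC1 and SMC3 were also called together less often. In wild-type cells 165 of 209 SMC3 peaks had an SMC1 peak (78.9%, interval 72.9 to 83.9%), against 94.0% elsewhere, a difference of -15.1 points (interval -21.1 to -10.1). In SA1-null cells 442 of 505 did (87.5%), against 88.9%, and the interval of the difference, -4.54 to 1.27 points, takes in 0. Read from SMC1, 446 of 818 SA1-null peaks had SMC3 (54.5%, against 66.8%), a difference of -12.3 points (interval -15.7 to -8.88).

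SA2 of SA1-poor windows mostly lay where no ring subunit was called. Of 371 wild-type SA2 peaks, 50 (13.5%, interval 10.4 to 17.3%) had SMC1 called in the same genotype, against 65.9% in the other windows and 63.3% of all autosomal SA2 peaks. The difference was -52.4 points (interval -55.7 to -48.4) and held on all 19 autosomes. The share depended on the SA1 limit: it was 3.16% in windows with at most 1 SA1 midpoint and 29.2% in windows with at most 6, against 64.6% and 68.0% in the windows outside those limits. In the 84 windows without SA1 the count was 0 of 62 (Wilson interval up to 5.83%). The rule on SA1 bears on these shares. A wild-type SA1 peak overlapped 20.8% of wild-type SA2 peaks here and 72.1% elsewhere, and 49.8% and 92.7% of SA1-null SA2 peaks. Of wild-type SA2 peaks without SA1, 0.340% here and 4.40% elsewhere had SMC1. A limit on SA1 thus leaves few SA2 peaks with SMC1, so the low share in large part describes how the windows were chosen. Of 237 SA1-null SA2 peaks, 90 (38.0%, interval 32.0 to 44.3%) had SMC1 called in the same genotype, against 90.7% elsewhere and a background of 88.7%. That difference was -52.7 points (interval -58.7 to -46.3), again on all 19 autosomes. With limits of 1 and 6 the SA1-null share was 14.0% and 64.8%, against 89.7% and 91.5%. The 2 genotypes shared few SA2 positions: 50 of the 371 wild-type peaks overlapped an SA1-null SA2 peak (13.5%), against 39.2% elsewhere and 38.0% overall (difference interval -29.1 to -21.7 points).

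SA2 peaks that had SMC1 lay mostly at SA1 positions. Wild-type SA2 peaks with an SA1 peak numbered 77, and 49 of them had SMC1 (63.6%, interval 52.5 to 73.5%, against 89.7% elsewhere). Of the 294 without SA1, 1 had SMC1 (0.340%, interval 0.0601 to 1.90%, against 4.40% elsewhere). SA1-null SA2 peaks at wild-type SA1 positions had SMC1 in 85 of 118 cases (72.0%, against 96.6%) and the remaining 119 in 5 (4.20%, against 15.3%). The SA2 peaks were narrow, with a median of 434 bp in wild-type cells, 468 bp in the other windows, and 466 bp against 531 bp in SA1-null cells. Among SA2 peaks wider than the list's median of 464 bp, 27.6% of 116 had SMC1 in SA1-poor windows and 78.2% elsewhere. Few wild-type SA2 peaks overlapped an input interval: 0 of 371 wild-type peaks for the first input, which allows a share of up to 1.02%, and 2 for the second. For SA1-null SA2 the counts were 3 of 237 (1.27%, against 0.199% elsewhere) and 7 (2.95%, against 0.565%), and 7 overlapped an SA1-null SA1 peak (2.95%, against 0.299%). These 3 shares were higher than elsewhere, with difference intervals of 0.219 to 3.46, 0.857 to 5.41 and 1.13 to 5.67 points.

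**Figure D3:**
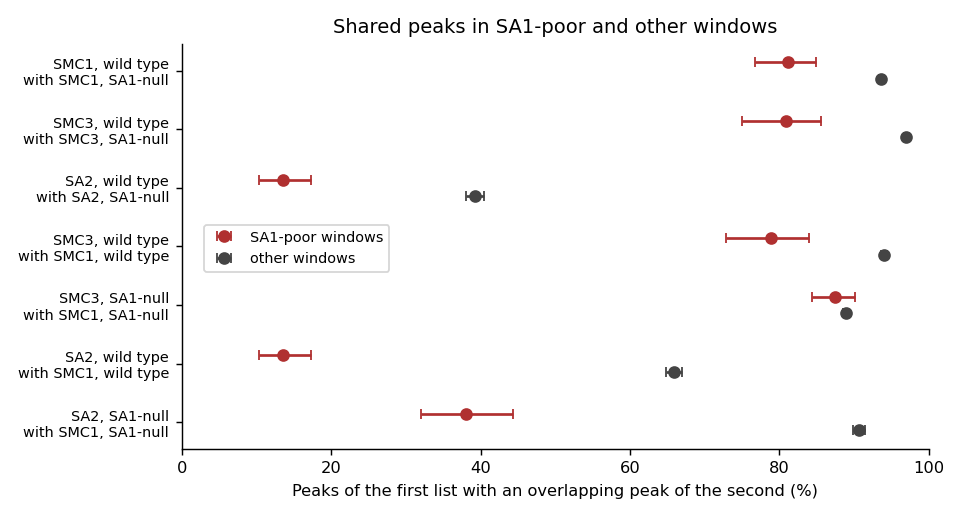
Share of the peaks of one list with an overlapping peak of another, in percent with 95% Wilson intervals, for SA1-poor windows (red) and the other windows (dark grey). The SA2 shares are the farthest apart, at 13.5 and 65.9% for wild-type SA2 with SMC1, and the SA1-null SMC3 shares with SMC1, 87.5 and 88.9%, are the closest.

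The 606 SA1 peaks that remained in these windows were less often accompanied by a ring than SA1 peaks elsewhere. A wild-type SMC1 peak was present at 200 (33.0%, interval 29.4 to 36.8%, against 66.8% elsewhere, difference interval -37.5 to -29.9 points) and a wild-type SMC3 peak at 128 (21.1%, against 51.4%, difference interval -33.4 to -26.8). In SA1-null cells SMC1 was called at 301 of these positions (49.7%, against 81.4%, difference interval -35.8 to -27.8) and SMC3 at 256 (42.2%, against 76.8%, difference interval -38.5 to -30.6). SA2 was called at 77 in wild-type cells (12.7%, against 20.5%) and at 118 in SA1-null cells (19.5%, interval 16.5 to 22.8%, against 22.2%), where the interval of the difference, -5.68 to 0.696 points, takes in 0. None of the 606 had an SA1-null SA1 peak, which allows up to 0.630% by the Wilson interval. By their names, the lists were called at a false discovery rate of 10, read as percent. The share of false calls among the few peaks of SA1-poor windows is unknown. Its part in these and the other overlaps was not tested.

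Merged over the 8 ChIP lists, overlapping peaks gave 1650 positions in SA1-poor windows and 55572 in the others. A peak in 1 list only made up 1055 of the 1650 (63.9%, interval 61.6 to 66.2%), against 39.6%, a difference of 24.3 points (interval 21.9 to 26.6). The most frequent kinds were wild-type SA2 alone (289), SA1-null SMC1 alone (282) and wild-type SA1 alone (254). Wild-type SA2 with no SMC peak of any list accounted for 299 positions (18.1% against 3.57%, a difference of 14.5 points, interval 12.8 to 16.5). Their density was 0.735 per SA1-poor window and 1.01 per other window, over the windows kept by the rule. SA1-null SA2 with no SMC peak accounted for 139 positions, 0.342 per SA1-poor window and 0.250 per other window, again over the windows kept. The 117 windows left out hold no such position, so counting them would lower both SA1-poor densities. The 8 input-dense SA1-poor windows held 17 of the 237 SA1-null SA2 peaks.

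A core of full positions was present all the same. All 4 SMC lists met at 153 positions (9.27%, interval 7.97 to 10.8%, against 25.0%, difference interval -17.1 to -14.2 points), of which 118 had SA1 and 22 had SA1 and SA2 of both genotypes. SMC1 and SMC3 were called together in SA1-null cells alone at 173 positions (10.5%, against 15.7%) and in wild-type cells alone at 3 (0.182%, against 0.081%, with overlapping intervals). The lists differ in length, and its part in these counts was not tested.

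**Figure D4:**
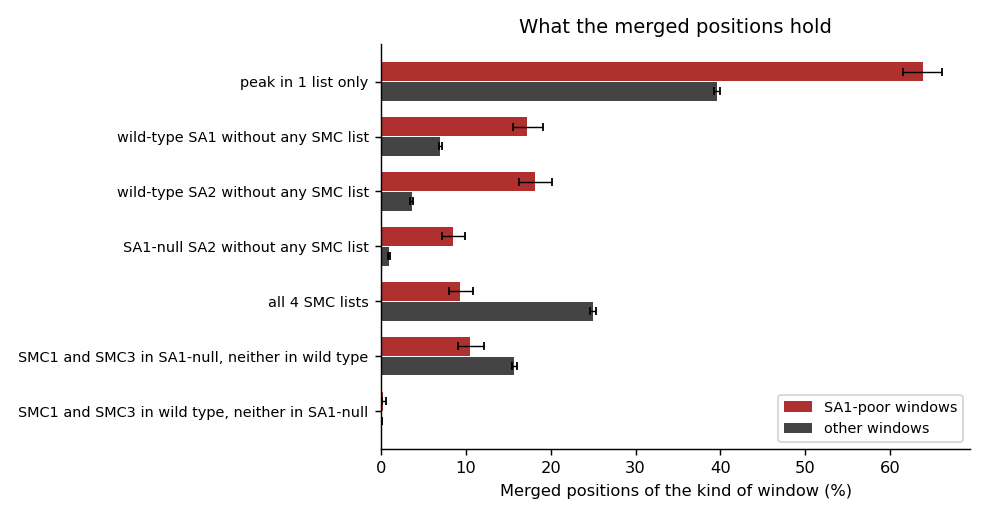
Share of merged positions of each kind, in percent with 95% Wilson intervals, in SA1-poor windows (red, 1650 positions) and the other windows (dark grey, 55572). Positions in 1 list only make up 63.9 and 39.6%, and wild-type SA2 without any SMC list 18.1 and 3.57%, whereas positions in all 4 SMC lists make up 9.27 and 25.0%.

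The 407 windows were far from alike. The median window held 5 peaks over the 8 lists, against 72 in the other windows. A single peak was all that 57 windows had, and 185 had fewer than 5. At the other end were 5 windows with 44 to 58 peaks. These were chr13:3000001-4000000, chr14:30000001-31000000, chr18:8000001-9000000, chr7:122000001-123000000 and chr7:143000001-144000000. The window on chromosome 13 held 3 SA1 peaks beside 6 wild-type and 24 SA1-null SMC1 peaks, and 4 and 17 SMC3 peaks. That on chromosome 18 held 3 SA1 peaks, 7 and 25 SMC1 peaks, and 1 and 14 SMC3 peaks. On chromosome 7 the window from 122000001 held 8 and 25 SMC1 peaks and no SA2 peak in either genotype. Together the 5 windows held 116 of the 818 SA1-null SMC1 peaks (14.2%). In the 407 windows the variance of the counts was 5.56 times the mean for SA1-null SMC1 and 0.964 times the mean for wild-type SA2. A ratio of 1 is that of counts that fall independently and evenly. Both ratios cover only the windows kept by the rule, of which 27 held wild-type SA2 and no other ChIP list. The 117 windows with no ChIP interval are not included, so the 0.964 does not show that SA2 falls evenly.

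The 5 top-ranked positions with all 4 SMC lists, ranked by peak width, were chr2:36069296-36070584, chr14:30311313-30313054, chr14:30255196-30257192, chr13:3664229-3665364 and chr11:73094669-73095774 (mm9). The ranking picks wide peaks, so their width is no separate result. The SA1-null SMC3 peaks at these positions were 1289, 1186, 1393, 1136 and 1083 bp wide, against a median of 603 bp in SA1-poor windows. All but the second had SA1 and, in both genotypes, SA2. The second had neither and lay in the same window as the third. Among positions with SMC1 and SMC3 in SA1-null cells alone, the top 5 were chr2:46297950-46300061, chr18:8327596-8329111, chr12:59656745-59658142, chr13:3693578-3694785 and chr13:3806197-3807512. The first of these had SA1 and SA2 of both genotypes, and the other 4 had neither SA protein in any list. Both positions on chromosome 13 lay in the peak-rich window that starts at 3000001.

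The widest SA1 peaks of the windows were of mixed kind. The first was 2028 bp wide, at chr2:46298034-46300061, and had SA2 in both genotypes and SMC1 and SMC3 in SA1-null cells but not in wild-type cells. The second, 1378 bp wide at chr3:119658338-119659715, overlapped no peak of any other list. Those at chr11:73094739-73095774 (1036 bp) and chr2:36069358-36070366 (1009 bp) had every SA2 and SMC list. The fifth, 838 bp wide at chr10:15111753-15112590, had SA1-null SMC1 alone. None of the 5 overlapped an input interval.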

How the data were processed

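The data are 10 interval lists from 11 samples of wild-type and SA1-null MEFs, 9 of them immunoprecipitations. Each deposited list has 3 columns (chromosome, start, end), no header and no score, and other units than base positions were not used. Per the submitters' processing notes, the tool named is CASAVA 1.7 and the build is mm9. The authors' aligner and peak caller were not given in the sources used here. Names of the deposited lists give a false discovery rate of 10, read as percent, with no fold minimum. Coordinates are printed 1-based, with deposited starts taken as 0-based. Depth is unknown, so precision is given by the number of peaks only.

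Peaks were assigned to 1 Mb windows by midpoint. An overlap of 1 bp or more made peaks shared, and merged positions joined overlapping peaks of the 8 ChIP lists. Shares have Wilson intervals, differences of shares Newcombe intervals, ratios exact binomial intervals and quotients of ratios conditional exact intervals, all at 95%. No p-values were computed, since peaks are not replicates. The members and lists were chosen with earlier results of these data known. Named items were, by rule, the 5 longest runs, the 5 windows with most peaks, the 5 top positions of each of 2 kinds by mean width percentile, and the 5 widest SA1 peaks.

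Computation used Python 3.11.15, numpy 2.4.6, pandas 2.3.3, scipy 1.17.1 and matplotlib 3.10.9. Overlap counts were checked against bedtools 2.31.1 in 90 ordered pairs of lists and were equal in each, and the functions were tested on simulated data. Alternatives were other limits on SA1, shifted windows, a minimum of ChIP intervals, removal of peaks at input or SA1-null SA1 intervals, the widest 50% of each list, and an overlap of 50%. Leaving out the 5 richest windows, the last window of each chromosome and input-dense windows, and keeping windows with no ChIP interval, were added after seeing the data.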

Additional observations from a re-analysis of the deposited data

How the results depend on the processing

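Of 101 values recomputed for 11 results under 11 alternatives, 83 stayed within the 95% interval of the reported value (the window count within 1.5 times) and 18 moved; no ratio crossed 1. The limit on SA1 moved most. With at most 1 SA1 midpoint, 213 windows remained, the SMC1 ratio was 2.81 and its quotient over the other windows 1.44, and the shares were 71.4% (SMC1 found again), 68.2% (SMC3 found again), 3.16% (wild-type SA2 with SMC1) and 14.0% (SA1-null SA2 with SMC1). With at most 6 there were 728 windows, and the shares were 87.4%, 90.6%, 29.2% and 64.8%. With at least 5 ChIP intervals a window, which counts the measured lists themselves, 222 windows remained and the SA2 shares with SMC1 were 19.5% and 49.2%. In the widest 50% of each list, which leaves fewer partners, the shares were 60.0% for SMC1 found again (78.5% in the other windows), 68.1% for SMC3 (80.2%) and 25.3% for SA1-null SA2 with SMC1 (76.0%). Under every alternative run, each of the 4 shares was lower in SA1-poor than in the other windows. Peaks ranked by score could not be used, because the lists hold none. No paired analysis was possible because each list stands for 1 group and the 2 SA1-null SMC1 samples share a list. Depth is unknown, and a window without a peak is not shown to lack the protein.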
